A study of Mus musculus with 6 samples.

Results

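Transcripts of 10 genes that make, break down or modify sphingomyelin, ceramide and sulfatide were measured by RNA-Seq in the livers of control mice and mice with an induced deletion in *Spns1*, called g*Spns1*-cKO. The genes were taken by name from a table of 54532 genes: the sphingomyelin synthases *Sgms1* and *Sgms2*, the neutral sphingomyelinases *Smpd2*, *Smpd3* and *Smpd4*, the ceramide kinase *Cerk*, the alkaline ceramidases *Acer2* and *Acer3*, the ceramide galactosyltransferase *Ugt8a* and the sulfotransferase *Gal3st1*. There were 3 livers per group, with 1 library per liver. All 10 genes passed the filter on low counts, 9 of them in both groups and *Ugt8a* through the g*Spns1*-cKO libraries alone. The study asked how loss of SPNS1, a lysosomal exporter of lysophospholipids, affects lipid metabolism.

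The g*Spns1*-cKO mice were *Spns1* fl/fl mice carrying Rosa26Cre-ERT2, a Cre that is active once tamoxifen is given, on a C57BL/6 background. Tamoxifen was injected on several days before weaning, and it removes the floxed exon in the whole body rather than in hepatocytes alone. According to the methods the controls for these mice were *Spns1* fl/fl littermates, so both groups carry the floxed allele, whereas the labels call the control livers WT. The age and sex of the sequenced mice, and whether the controls received tamoxifen, are not given in the sources used here.

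Ceramide is the hub of sphingolipid metabolism. Sphingomyelin synthases transfer phosphocholine from phosphatidylcholine to ceramide, and sphingomyelinases reverse this step. Ceramidases split ceramide into sphingosine and a fatty acid, and ceramide kinase turns it into ceramide-1-phosphate, a lipid with signaling roles. Galactosyltransferase UGT8 makes galactosylceramide, which GAL3ST1 sulfates to sulfatide, a lipid best known from myelin and also present in other tissues. The 10 genes studied here act outside the lysosome, in the Golgi, endoplasmic reticulum, nuclear envelope or plasma membrane, whereas acid sphingomyelinase, acid ceramidase, galactosylceramidase and arylsulfatase A act inside it.

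In g*Spns1*-cKO livers, 4 of the 9 genes that passed the filter in both groups were higher and 2 were lower by edgeR (quasi-likelihood F-test, Benjamini-Hochberg adjusted p under 0.05 over 15449 genes). *Cerk*, *Smpd3*, *Acer2* and *Sgms1* rose, *Gal3st1* and *Sgms2* fell, and *Smpd2*, *Smpd4* and *Acer3* did not pass. *Ugt8a* is left out of these counts, since a gene kept through the group where it is high had to differ. Over all genes tested, 41.8% were called, 21.3% as higher and 20.5% as lower. The median log2 fold change was 0.21 for the 9 genes and 0.014 for all genes. The libraries of the groups did not overlap in 7 of the 9 genes, 4 with higher and 3 with lower levels in g*Spns1*-cKO livers, where 27.1% and 26.9% of all genes, 54.1% together, did so. With 3 livers against 3, an exact permutation test cannot go below p = 0.1, so the adjusted p-values rest on edgeR's model and on information shared between genes.

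**Figure D1:**
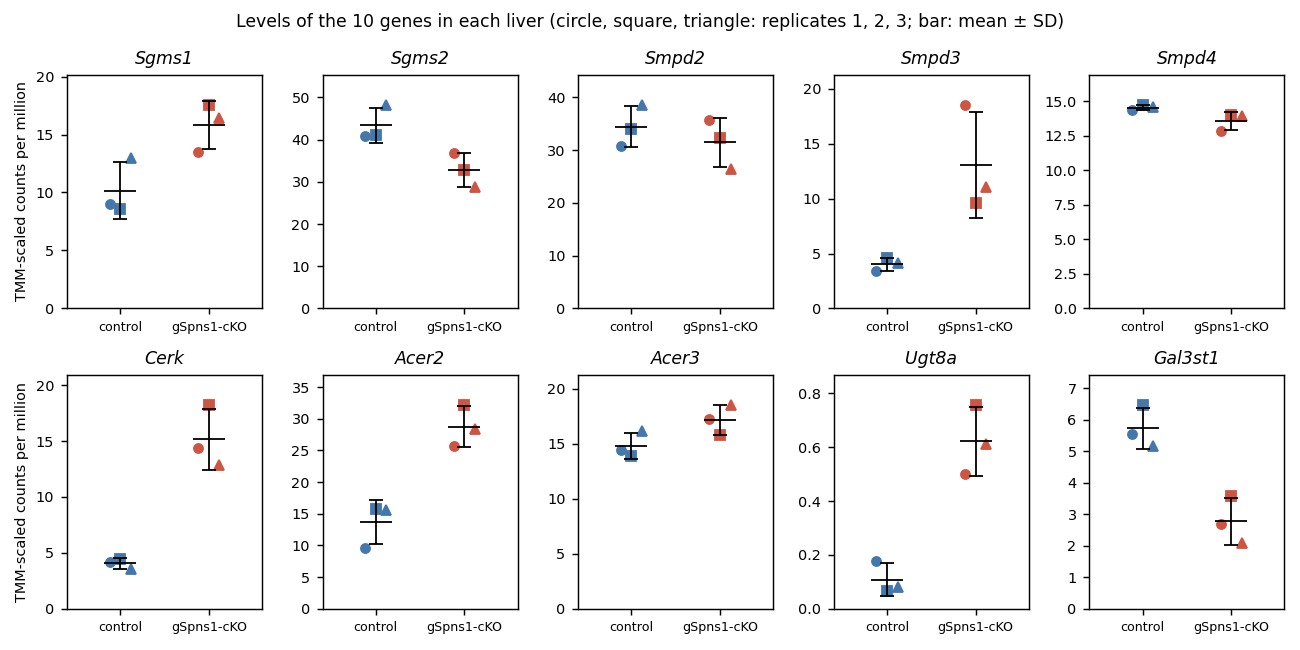
Level of each of the 10 genes in each liver, as CPM, the counts of a gene relative to the library total, scaled by TMM on a linear axis from 0. Circles, squares and triangles are replicates 1, 2 and 3 of each group and bars are mean ± SD. In *Cerk*, *Smpd3*, *Acer2*, *Ugt8a* and *Sgms1* all g*Spns1*-cKO livers lie above all control livers, and in *Sgms2*, *Smpd4* and *Gal3st1* below them.

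The libraries held between 30350002 and 35295611 counts, and were scaled by TMM, with factors of 0.834 to 0.873 in control and 1.16 to 1.18 in g*Spns1*-cKO livers. Scaling by library size only shifted the all-gene median log2 fold change from 0.014 to 0.46, and upper-quartile scaling moved it to 0.14, so small differences are relative to TMM. Of all genes, 3286 were called higher and 3166 lower with TMM, 4111 and 2240 with upper-quartile scaling, and 7289 and 970 with library size only. *Spns1* itself was at 35.9, 50.7 and 34.6 CPM in the control livers and at 17.8, 30.6 and 17.8 CPM in the g*Spns1*-cKO livers (log2 fold change -0.87, standard error 0.25, edgeR adjusted p = 0.0300). Its call was lost without control replicate 2 (-0.68, edgeR adjusted p = 0.0785), g*Spns1*-cKO replicate 1 (-0.74, 0.0910) or g*Spns1*-cKO replicate 3 (-0.74, 0.0830), and with library size only (-0.43, 0.213). The counts are per gene and include the remaining exons, so removal of the floxed exon could not be read from them. Cell type markers are counted here where they passed the filter in both groups, beside 21.3% of all genes called higher and 20.5% lower. Of such markers, 4 of 7 hepatocyte genes were lower. In g*Spns1*-cKO livers, 10 of 11 macrophage, 5 of 6 cholangiocyte, 6 of 8 stellate and 6 of 8 endothelial genes were higher. Of 3 lymphocyte markers 0 were higher and 1 was lower, and 2 of 2 neutrophil markers were higher. In bulk liver, more cells of a type and more RNA per cell cannot be told apart.

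Promoter windows of RefSeq (GRCm38.p6, from 250 bases before to 50 bases after a transcription start) were found for 9 of the 10 genes, with 20 windows in all, but not for *Smpd3*. The windows of *Cerk*, *Acer2* and *Ugt8a*, each with a single annotated start and higher levels in g*Spns1*-cKO libraries, are shown with the first listed window of *Gal3st1*, the gene with the largest decrease. Each runs 5′ to 3′ on the strand of its gene, and capitals mark the GC box GGGCGG, the CCAAT box or the E-box CACGTG on either strand.
*Cerk* (chr15:86186092-86186391, minus strand): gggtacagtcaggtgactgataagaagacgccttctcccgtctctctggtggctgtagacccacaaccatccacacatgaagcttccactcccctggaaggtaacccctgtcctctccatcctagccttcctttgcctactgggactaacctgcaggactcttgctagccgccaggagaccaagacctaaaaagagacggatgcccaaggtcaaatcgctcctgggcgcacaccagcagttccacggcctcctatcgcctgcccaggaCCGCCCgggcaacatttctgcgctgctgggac
*Acer2* (chr4:86874164-86874463, plus strand): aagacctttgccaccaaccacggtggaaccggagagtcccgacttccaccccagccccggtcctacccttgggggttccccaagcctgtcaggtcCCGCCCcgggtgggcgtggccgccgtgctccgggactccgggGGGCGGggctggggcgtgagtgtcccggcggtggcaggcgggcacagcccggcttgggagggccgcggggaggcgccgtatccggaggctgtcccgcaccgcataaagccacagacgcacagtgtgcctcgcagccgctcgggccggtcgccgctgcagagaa
*Ugt8a* (chr3:125938603-125938902, minus strand): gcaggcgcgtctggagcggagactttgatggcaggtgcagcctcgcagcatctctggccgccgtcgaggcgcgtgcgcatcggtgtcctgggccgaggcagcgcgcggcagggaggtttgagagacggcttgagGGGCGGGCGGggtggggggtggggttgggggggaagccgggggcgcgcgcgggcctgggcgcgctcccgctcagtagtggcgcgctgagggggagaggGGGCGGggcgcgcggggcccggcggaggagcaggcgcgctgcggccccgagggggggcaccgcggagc
*Gal3st1* (chr11:3983386-3983685, plus strand): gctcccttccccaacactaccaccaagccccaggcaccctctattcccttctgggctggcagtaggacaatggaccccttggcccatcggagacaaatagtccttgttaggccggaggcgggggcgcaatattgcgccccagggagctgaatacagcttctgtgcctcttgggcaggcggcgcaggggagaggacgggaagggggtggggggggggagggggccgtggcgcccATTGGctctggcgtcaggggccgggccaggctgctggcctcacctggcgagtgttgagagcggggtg
The GC box is found once in the window of *Cerk*, 2 times in *Acer2* and 3 times in *Ugt8a*, where adjacent copies overlap. It was not confined to genes with higher levels: 7 of the 9 genes hold it in a window. These are *Cerk*, *Acer2*, *Sgms1* and *Ugt8a*, the decreased *Sgms2*, and *Smpd2* and *Acer3*, which did not pass. The window of *Gal3st1* holds no GC box and a single CCAAT box on the reverse strand. Of all 32851 windows, 35.7% hold the GC box, 37.4% the CCAAT box, and 7.15% the E-box CACGTG, the core of the element found at many lysosomal genes. Counted by window in the same way, 10, 6 and 2 of the 20 windows of these genes hold them. The E-box was found in a window of *Sgms2* and in that of *Smpd2*, and in no window of *Cerk*, *Acer2*, *Sgms1* or *Ugt8a*. GC content was 58.3%, 73.0%, 78.3% and 67.0% in the 4 windows shown, against a median of 52.7% over all windows. These are descriptions of letters in fixed windows, and which start is used in these livers was not measured.

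*Sgms1* and *Sgms2* encode the enzymes that make sphingomyelin, in the Golgi and mainly at the plasma membrane. *Sgms1* (ENSMUSG00000040451, GRCm38 chromosome 19, 32122727 to 32389714, minus strand) was at 8.999, 8.54 and 13.0 CPM in controls and at 13.5, 17.5 and 16.4 CPM in g*Spns1*-cKO livers. All g*Spns1*-cKO livers were above all control livers, although control replicate 3 was close to g*Spns1*-cKO replicate 1. Its log2 fold change was 0.64 (standard error 0.18, edgeR adjusted p = 0.0158). The call of *Sgms1* was lost without control replicate 1 (0.55, edgeR adjusted p = 0.0593), control replicate 2 (0.52, 0.0676) or g*Spns1*-cKO replicate 3 (0.61, 0.0556). It shares 10 exonic bases with *2700046G09Rik* on the opposite strand, which had between 11 and 54 counts per library.

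*Sgms2* (ENSMUSG00000050931, chromosome 3, 131318985 to 131491411, minus strand) was at 40.9, 41.1 and 48.2 CPM in controls and at 36.9, 32.8 and 28.9 CPM in g*Spns1*-cKO livers. The groups did not overlap, and the log2 fold change was -0.40 (standard error 0.12, edgeR adjusted p = 0.0229). This decrease depended on the scaling: with upper-quartile scaling it was -0.27 (edgeR adjusted p = 0.0823), and with library size only the value was 0.044 (0.767). The call was also lost without control replicate 3 (-0.33, 0.0808) or g*Spns1*-cKO replicate 3 (-0.32, 0.107).

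The ratio of the synthases within a library does not depend on the scaling. Per kilobase of gene length, *Sgms2* counts were 7.52, 7.97 and 6.15 times those of *Sgms1* in controls and 4.53, 3.09 and 2.91 times in g*Spns1*-cKO livers. The ratio was therefore lower in each g*Spns1*-cKO liver, by 2.08-fold on average. *Sgms1* supplied 12.3 ± 1.49% of the synthase counts per length in controls and 22.7 ± 4.05% (SD, n = 3) in g*Spns1*-cKO livers, and *Sgms2* remained the more abundant gene. Their summed level was 7.90 ± 0.928 FPKM in control and 6.72 ± 0.504 FPKM in g*Spns1*-cKO livers. In FPKM, this sum was lower in every g*Spns1*-cKO liver than in every control liver. Unlike the ratio, the sum depends on the scaling: *Sgms2*, its larger part, had a log2 fold change of 0.044 with library size only. The sum was not computed with other scalings.

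The neutral sphingomyelinases cleave sphingomyelin to ceramide and phosphocholine at neutral pH. *Smpd3* encodes the enzyme of the plasma membrane and Golgi that is known for its part in exosome release and bone growth (ENSMUSG00000031906, chromosome 8, 106252548 to 106337988, minus strand). It was at 3.38, 4.58 and 4.11 CPM in controls and at 18.5, 9.59 and 11.1 CPM in g*Spns1*-cKO livers. Each g*Spns1*-cKO liver was above every control liver, and replicate 1 was the highest and set most of the spread. The log2 fold change of *Smpd3* was 1.70 (standard error 0.26, edgeR adjusted p = 0.000790), and 1.36 without g*Spns1*-cKO replicate 1 (edgeR adjusted p = 0.000348). The macrophage markers were also highest in this liver: their sum was between 224 and 397 CPM in control livers, and 1273, 906 and 936 CPM in g*Spns1*-cKO replicates 1, 2 and 3. The part of this in the result was not tested. *Smpd3* shares 247 exonic bases with *Prmt7* on the opposite strand. *Prmt7* had between 332 and 465 counts in control and between 526 and 595 in g*Spns1*-cKO libraries. *Smpd3* itself had between 95 and 141 and between 368 and 666. Whether counting used strand is not given in the sources used here.

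*Smpd2* (ENSMUSG00000019822, chromosome 10, 41485642 to 41490369, minus strand) was the most abundant of the 10 genes per length, at 7.65 ± 0.908 FPKM in control and 6.95 ± 1.02 FPKM in g*Spns1*-cKO livers. Its range overlapped with that of *Sgms2*, the next in order, in control livers. The CPM values of *Smpd2* were 30.8, 34.0 and 38.5 in control and 35.7, 32.2 and 26.5 in g*Spns1*-cKO livers, so the groups overlapped. The log2 fold change was -0.13, with a 95% confidence interval from -0.43 to 0.17 (edgeR adjusted p = 0.465). A stretch of 905 bases, 20.3% of the exonic bases of *Smpd2*, overlaps *Mical1* on the opposite strand. *Mical1* had between 13 and 27 counts in control and between 82 and 109 in g*Spns1*-cKO libraries, against at least 867 for *Smpd2*. *Smpd4* (ENSMUSG00000005899, chromosome 16, 17619354 to 17644828, plus strand), which encodes a sphingomyelinase of the nuclear envelope and endoplasmic reticulum, was at 14.3, 14.7 and 14.5 CPM in control and at 12.8, 14.0 and 13.9 CPM in g*Spns1*-cKO livers. It varied least between livers of the 10 genes, and although the groups did not overlap its log2 fold change was -0.099 with an interval from -0.35 to 0.15 (edgeR adjusted p = 0.518). Both values lost their negative sign with other scalings: with library size only *Smpd2* was at 0.32 (edgeR adjusted p = 0.0621) and *Smpd4* at 0.35 (0.0294), and with upper-quartile scaling they were at 0.00033 and 0.032.

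Within each library the share of *Smpd3* in the neutral sphingomyelinase counts per length was 7.07%, 8.65% and 7.13% in controls and 27.3%, 17.3% and 22.1% in g*Spns1*-cKO livers. The share of *Smpd2* was 76.4 ± 1.66% and 63.9 ± 3.61% (SD, n = 3). The ratio of *Smpd3* to *Smpd2* was higher in every g*Spns1*-cKO liver, by 3.45-fold on average, while that of *Smpd4* to *Smpd2* overlapped between the groups, at 0.210 ± 0.0219 and 0.217 ± 0.0409. The summed level of the 3 genes was 10.01 ± 1.01 FPKM in control and 10.9 ± 1.71 FPKM in g*Spns1*-cKO livers, with overlapping groups.

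**Figure D2:**
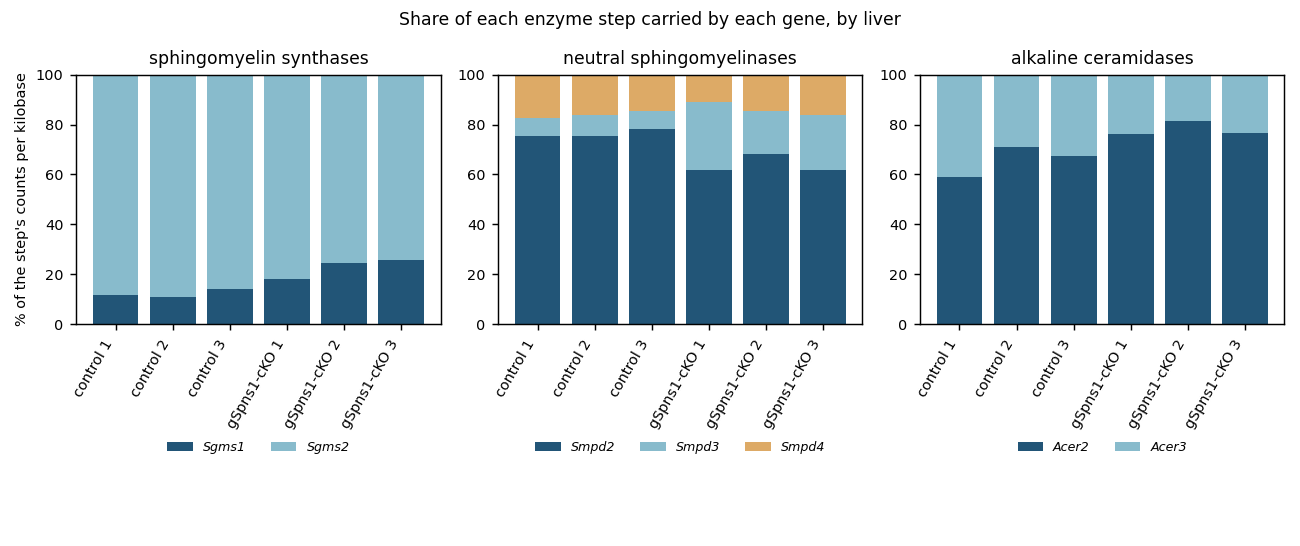
Share of each gene in the counts per kilobase of its enzyme step, in percent, for each control and g*Spns1*-cKO liver. As means of 3 livers, *Sgms1* is 12.3% in control and 22.7% in g*Spns1*-cKO of its step, *Smpd3* 7.62% and 22.2%, and *Acer2* 65.7% and 78.0%.

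*Cerk*, which encodes ceramide kinase (ENSMUSG00000035891, chromosome 15, 86139128 to 86186141, minus strand), had the smallest adjusted p of the 10 genes. It was at 4.16, 4.45 and 3.56 CPM in controls and at 14.4, 18.2 and 12.9 CPM in g*Spns1*-cKO livers. The lowest g*Spns1*-cKO liver was far above the highest control liver. The log2 fold change was 1.90 (standard error 0.17, edgeR adjusted p = 3.75e-05), and it stayed between 1.75 and 2.00 with each liver left out in turn. *Cerk* shares 57 exonic bases with the antisense gene *Gm15569*, which had at most 1 count per library. In the order of FPKM levels *Cerk* was in place 8 among the 10 genes in control livers, at 0.836 ± 0.0935 FPKM, and in place 4 in g*Spns1*-cKO livers, at 3.10 ± 0.548 FPKM. In control livers its range overlapped with those of its neighbours in this order, *Acer3* and *Smpd3*, and in g*Spns1*-cKO livers it overlapped with those of *Acer2* and *Smpd3*.

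The alkaline ceramidases release sphingosine from ceramide in the Golgi and endoplasmic reticulum. *Acer2* (ENSMUSG00000038007, chromosome 4, 86874396 to 86934822, plus strand), the Golgi enzyme, was at 9.64, 15.8 and 15.6 CPM in controls and at 25.7, 32.1 and 28.3 CPM in g*Spns1*-cKO livers. Control replicate 1 was lower than the other control livers, and all g*Spns1*-cKO livers were above them. The log2 fold change was 1.07 (standard error 0.19, edgeR adjusted p = 0.00159), and without control replicate 1 it was 0.86 (0.00177). *Acer3* (ENSMUSG00000030760, chromosome 7, 98206389 to 98321208, minus strand) was at 14.4, 13.9 and 16.2 CPM in control and at 17.3, 15.8 and 18.5 CPM in g*Spns1*-cKO livers, with overlapping groups. Its log2 fold change was 0.21, with a 95% confidence interval from -0.055 to 0.48 (edgeR adjusted p = 0.183), and it passed with upper-quartile scaling (0.34, 0.0401) and with library size only (0.66, 0.00110).

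*Acer2* counts per length were 1.43, 2.42 and 2.07 times those of *Acer3* in controls and 3.18, 4.35 and 3.28 times in g*Spns1*-cKO livers. The ratio was higher in each g*Spns1*-cKO liver, by 1.85-fold on average. The summed level of both genes was 2.86 ± 0.533 FPKM in control and 5.06 ± 0.380 FPKM in g*Spns1*-cKO livers, without overlap. In FPKM, of the 3 steps with several genes, the ceramidases alone had a higher sum in every g*Spns1*-cKO liver. The synthase sum was lower in each, and these sums were not computed with other scalings.

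*Ugt8a* (ENSMUSG00000032854, chromosome 3, 125865271 to 125938619, minus strand) had the fewest reads of the 10 genes. It had 5, 2 and 2 counts in controls and 18, 29 and 24 counts in g*Spns1*-cKO livers, so that it was kept for testing through the latter group, and its test is not given as a result. Scaled, these were 0.107 ± 0.0615 CPM and 0.622 ± 0.128 CPM (SD, n = 3). The fitted log2 fold change was 2.50, a value that depends on how the few control reads are smoothed. The pooled counts, 9 in control and 71 in g*Spns1*-cKO livers, gave a ratio of 5.85 after scaling, which is a description and not a test. At 0.0234 ± 0.0132 FPKM in control and 0.135 ± 0.0274 FPKM in g*Spns1*-cKO livers it stayed the lowest of the 10 genes in both groups.

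*Gal3st1* (ENSMUSG00000049721, chromosome 11, 3983636 to 3999326, plus strand) encodes the enzyme that acts on the product of UGT8. It was at 5.55, 6.46 and 5.18 CPM in controls and at 2.70, 3.57 and 2.09 CPM in g*Spns1*-cKO livers. Every g*Spns1*-cKO liver was below every control liver, and the log2 fold change was -1.04 (standard error 0.23, edgeR adjusted p = 0.00514). With library size only it was -0.60 (edgeR adjusted p = 0.0562). By length-scaled level *Gal3st1* was in place 3 among the 10 genes in control livers, at 2.79 ± 0.330 FPKM, and in place 8 in g*Spns1*-cKO livers, at 1.34 ± 0.355 FPKM. *Gal3st1* counts per length were 69.3, 221 and 146 times those of *Ugt8a* in controls and 11.98, 10.5 and 7.59 times in g*Spns1*-cKO livers, with at most 5 *Ugt8a* reads in each control library. *Ugcg*, which encodes the glucosyltransferase that uses the same substrate as UGT8, had a log2 fold change of 0.82. The ratio of *Ugt8a* to *Ugcg* counts per length was 0.00497 ± 0.00268 in control and 0.0165 ± 0.00212 (SD, n = 3) in g*Spns1*-cKO livers. Since *Ugt8a* was kept through the g*Spns1*-cKO libraries alone, both ratios with it are descriptions and not results.

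Markers of myelinating glia, cells rich in these lipids, were low. Of 8 such genes, 4 passed the filter in both groups and 2 of these were higher, where 21.3% of all genes were. The summed level of the 8 was between 24.1 and 29.3 CPM in control and between 34.3 and 44.0 CPM in g*Spns1*-cKO livers. Most of it came from *Cnp*, which was at 20.6 and 23.2 CPM on average and did not pass (edgeR adjusted p = 0.437). The 2 that were higher were *Pmp22*, at 2.99 and 10.2 CPM on average (log2 fold change 1.76, edgeR adjusted p = 5.26e-05), and *Mbp*, at 0.753 and 2.54 CPM (1.75, 0.000922). *Mag*, at 0.152 and 0.539 CPM, was like *Ugt8a* kept through the g*Spns1*-cKO libraries and is not counted. *Mog* had no count in any library, and *Sox10* had none in controls and on average 0.034 CPM in g*Spns1*-cKO livers. The cholangiocyte markers had sums of 59.5 to 77.8 CPM in control and of 187 to 300.0 CPM in g*Spns1*-cKO livers, most of it from *Spp1*, at 44.6 and 195 CPM on average. *Krt19*, *Krt7*, *Epcam* and *Sox9* were also higher (edgeR adjusted p at most 0.00656). The sums were highest in g*Spns1*-cKO replicate 2, where *Ugt8a*, *Cerk*, *Acer2*, *Sgms1* and, within that group, *Gal3st1* were highest as well. The part of these cells in the results was not tested.

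**Figure D3:**
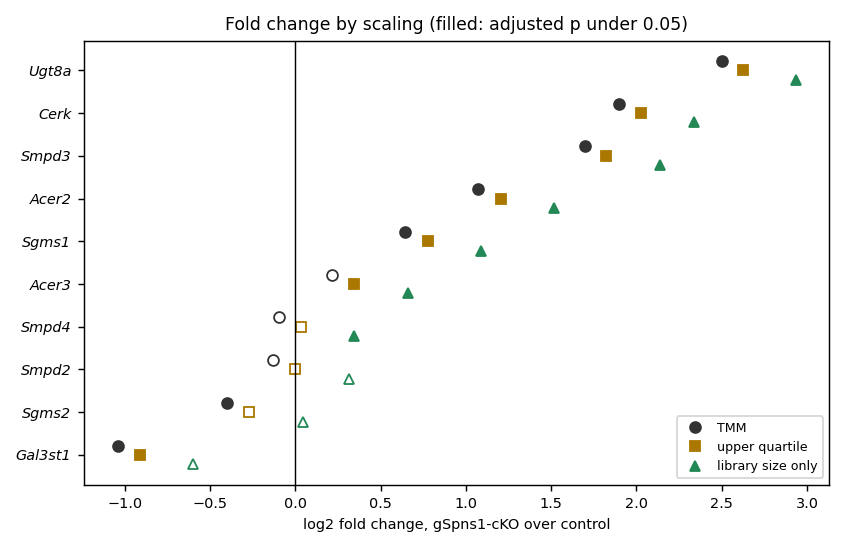
Log2 fold change of each gene, g*Spns1*-cKO over control, under TMM, upper-quartile and library size only scaling. Filled symbols have an adjusted p under 0.05. *Cerk*, *Smpd3*, *Acer2* and *Sgms1* are higher and filled under all 3 scalings, *Gal3st1* is lower under all 3, and *Sgms2*, *Smpd2* and *Smpd4* lie on either side of 0. *Ugt8a* is drawn too, but it was kept through the g*Spns1*-cKO libraries alone, so its filled symbols are not a result.

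The other genes of these pathways were taken from lists of 36 genes, 32 of them tested. Of the 31 that passed the filter in both groups, 10 were higher and 5 were lower, where 21.3% and 20.5% of all genes were. Their median log2 fold change was 0.17, against 0.014 for all genes. The lysosomal counterparts did not share a direction. *Smpd1*, acid sphingomyelinase, was at 51.0, 65.5 and 59.4 CPM in control and at 42.2, 45.1 and 40.6 CPM in g*Spns1*-cKO livers. Its log2 fold change was -0.46 (standard error 0.12, edgeR adjusted p = 0.00958), and with library size only -0.016 (0.916). *Asah1*, acid ceramidase, was at 38.8, 39.3 and 44.2 CPM in control and at 69.2, 61.9 and 65.0 CPM in g*Spns1*-cKO livers. Its log2 fold change was 0.68 (standard error 0.10, edgeR adjusted p = 0.000632). *Galc*, galactosylceramidase, had a log2 fold change of 0.17 (edgeR adjusted p = 0.446). *Arsa*, which removes the sulfate that GAL3ST1 adds, was at 82.3, 66.8 and 72.7 CPM in controls and at 81.8, 23.5 and 38.3 CPM in g*Spns1*-cKO livers. Replicate 1 of the g*Spns1*-cKO livers lay at the control level. The log2 fold change of *Arsa* was -0.63 (edgeR adjusted p = 0.357), and without that liver -1.26 (0.00180).

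Of 12 tested genes of sphingomyelin turnover and lipid transfer, 6 were higher and 3 were lower, beside 21.3% and 20.5% of all genes. *Gltp*, which encodes a glycolipid transfer protein, was at 3.59, 4.61 and 3.24 CPM in control and at 13.7, 13.3 and 15.5 CPM in g*Spns1*-cKO livers, and its log2 fold change was 1.89 (standard error 0.17, edgeR adjusted p = 3.4e-05). *Smpdl3b*, an acid sphingomyelinase-like gene, had 1.36 (edgeR adjusted p = 0.0143), and *Enpp2*, which encodes autotaxin, had 0.74 (0.00134). *Col4a3bp*, which encodes the ceramide transfer protein CERT that feeds SGMS1 in the Golgi, had 0.43 (0.00979), *Nsmaf*, which encodes an adaptor linked to neutral sphingomyelinase activity, 0.46 (0.0105) and the acid sphingomyelinase-like *Smpdl3a* 0.37 (0.0181). *Vapb*, whose product anchors CERT at the endoplasmic reticulum, had -0.39 (0.0161), and *Plekha8*, which encodes a glucosylceramide carrier, had -0.48 (0.0114). Without g*Spns1*-cKO replicate 3 the calls of *Col4a3bp* (0.37, 0.0533), *Nsmaf* (0.42, 0.0524) and *Vapb* (-0.39, 0.0592) were lost, and so was that of *Vapb* without g*Spns1*-cKO replicate 2 (-0.33, 0.0576). That of *Smpdl3a* was lost without control replicate 1 (0.36, 0.0515), control replicate 2 (0.33, 0.0619) or g*Spns1*-cKO replicate 1 (0.29, 0.0524). *Vapb* did not pass with upper-quartile scaling (-0.26, 0.0686) and had the opposite sign with library size only (0.055, 0.681). *Plekha8* did not pass with library size only (-0.029, 0.852).

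The ceramide breakdown list held the other ceramidases, a ceramide kinase-like gene and *Pla2g4a*. Of its 4 tested genes, *Asah1* and *Pla2g4a* were higher, where 21.3% of all genes were. *Pla2g4a*, which encodes the cytosolic phospholipase A2 that binds ceramide-1-phosphate, was at 0.534, 0.649 and 0.711 CPM in control and at 3.17, 2.55 and 2.82 CPM in g*Spns1*-cKO livers (log2 fold change 2.17, standard error 0.28, edgeR adjusted p = 0.000239). *Acer1*, the remaining alkaline ceramidase gene, had no count in any library.

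Of 6 genes of galactosylceramide, sulfatide and glucosylceramide that passed the filter in both groups, *Ugcg* was higher (log2 fold change 0.82, edgeR adjusted p = 0.000240) and *Gba2* was lower (-0.80, 0.00272). Of all genes tested, 21.3% were higher and 20.5% lower. *Gba2* encodes a glucosylceramidase that acts outside the lysosome. *Mal*, which encodes a raft protein found with sulfatide, had at most 11 counts in controls and 31, 86 and 27 in g*Spns1*-cKO livers, so that it too was kept through the latter group and is not counted. *Gba2* did not pass with library size only (-0.36, 0.0782). *Fa2h*, which makes the hydroxylated fatty acids of galactolipids, had no count in controls and 2, 4 and 2 in g*Spns1*-cKO livers, too few to be tested. Of 9 genes that supply the sulfate and sugar donors, *Slc35b2*, a Golgi transporter of the sulfate donor PAPS, was lower at 58.5, 62.6 and 64.0 CPM in control and 39.2, 37.8 and 33.7 CPM in g*Spns1*-cKO livers (log2 fold change -0.74, standard error 0.10, edgeR adjusted p = 0.000389). *Ugp2*, which makes UDP-glucose, was higher (0.77, 0.00647), and the PAPS synthases *Papss1* and *Papss2* both had 0.18 and did not pass (0.456 and 0.476). Thus 1 of the 9 donor genes was higher and 1 lower, beside 21.3% and 20.5% of all genes.

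**Figure D4:**
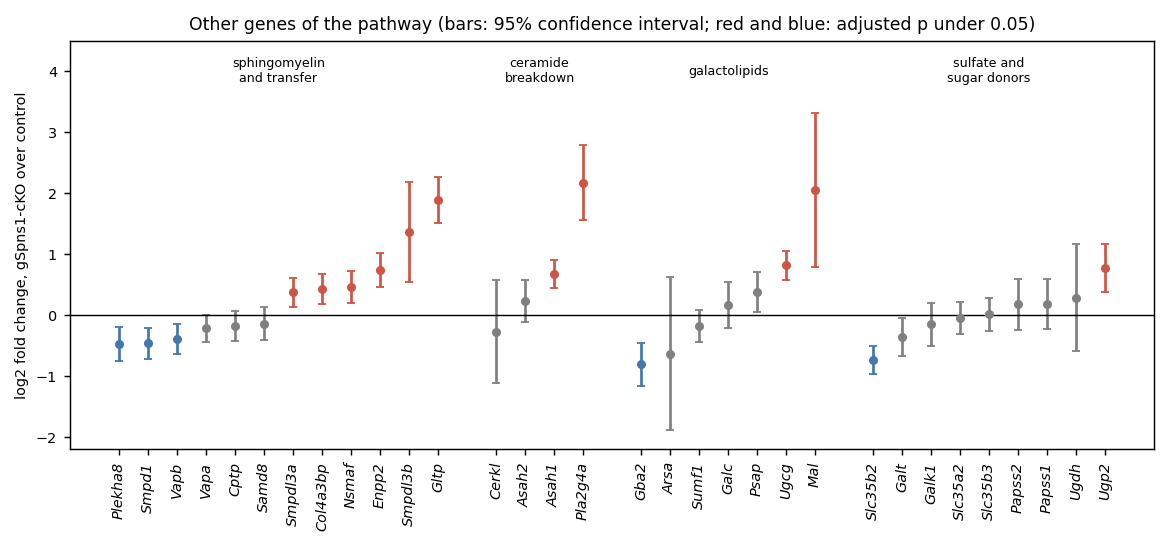
Log2 fold change, g*Spns1*-cKO over control, with its 95% confidence interval, for the 32 tested genes of the other pathway lists. Red points (11, with *Mal*) are higher and blue points (5) lower at an adjusted p under 0.05, and grey points did not pass. *Pla2g4a*, *Mal* and *Gltp* have the highest values, and *Gba2* and *Slc35b2* the lowest of those that passed.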

How the data were processed

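Poly-T selected liver RNA was sequenced from 3 control and 3 g*Spns1*-cKO mice, with 1 library per mouse. The authors deposited whole-number counts per gene, not normalized, with FPKM values and gene lengths in bases. The FPKM are scaled by gene length and by library. Between libraries they moved with the TMM-scaled CPM rather than with counts over the library total, so FPKM levels and sums depend on that scaling. The submitters' processing notes name fastp, HISAT2 2.0.5, featureCounts 1.5.0-p3 and mm10. The authors' own fold changes and p-values in the table were not used. GENCODE M21 (GRCm38) held 54409 of the gene IDs, 98.3% at identical coordinates.

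The test was run on counts with edgeR 4.0.16 in R 4.3.3: filterByExpr, TMM, robust quasi-likelihood test without covariates, Benjamini-Hochberg adjustment over 15449 genes and a threshold of 0.05. CPM use TMM-scaled library sizes. The standard error is the fold change divided by the square root of F. FPKM were used for levels between genes, and counts per kilobase for ratios within a library. P-values measure the spread between these mice, and chi-square values per gene of 42.5 to 126 between replicates were far above sampling noise. The smallest detectable signal, taken as 3 counts, was between 0.0850 and 0.0988 CPM before TMM scaling. The members and gene lists were chosen with earlier results of these data known, and 2 listed genes are not reported here. Named by rule are all members, *Spns1*, listed genes that passed, the lysosomal counterparts, genes overlapping a member's exons, and markers where their sum is described. *Acer1*, *Fa2h*, *Papss1*, *Papss2* and listed genes that change sign with the processing were named after their values were seen. Alternatives were DESeq2 1.42.0, limma-voom (limma 3.58.1), other scalings, filters and threshold, a replicate block, and leaving out each mouse.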

Additional observations from a re-analysis of the deposited data

How the results depend on the processing

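The increases of *Cerk*, *Smpd3*, *Acer2* and *Sgms1* kept direction and call under every alternative scaling, test and filter run, except that *Sgms1* (edgeR adjusted p = 0.0158) did not pass a threshold of 0.01. *Ugt8a* had too few reads for the filter of 10 counts in every library. The counts that follow include *Ugt8a* and, among the other genes, *Mal*. Leaving out 1 mouse at a time, between 4 and 5 genes were higher and between 1 and 2 lower, and the other pathway genes gave between 9 and 12 higher and between 4 and 6 lower. Library size only gave 0 lower genes of the 10, and 19 higher and 1 lower of the other genes. Upper-quartile scaling gave 1 lower gene of the 10. A threshold of 0.01 gave 1 lower of the 10, and 7 higher and 3 lower of the others. On the log2 scale, library size only gave *Sgms2* 0.044, *Smpd2* 0.32, *Smpd4* 0.35, *Acer3* 0.66, *Gal3st1* -0.60 and *Spns1* -0.43. Upper-quartile scaling gave *Sgms2* -0.27, *Smpd2* 0.00033, *Smpd4* 0.032, *Acer3* 0.34 and *Spns1* -0.74 (edgeR adjusted p = 0.0635). These follow from the shift of the median of all genes. Library size only also turned *Samd8* (0.31), *Vapa* (0.23), *Vapb* (0.055), *Cptp* (0.27), *Cerkl* (0.18), *Sumf1* (0.27), *Slc35a2* (0.40), *Galt* (0.085) and *Galk1* (0.29). *Slc35a2* turned with upper-quartile scaling (0.089) and the filter of 10 counts (0.0036). Leaving out 1 mouse, *Sgms1* ranged from 0.52 to 0.84, *Sgms2* from -0.50 to -0.32, *Spns1* from -1.18 to -0.68, *Cerkl* from -0.47 to 0.063, *Papss1* from -0.017 to 0.28, *Slc35b3* from -0.037 to 0.073, *Slc35a2* from -0.12 to 0.0047 and *Ugdh* from -0.11 to 0.58. The cause of these ranges was not tested. The log2 difference of the ratio of *Smpd4* to *Smpd2* ranged from -0.10 to 0.17. The replicate block, which takes the replicate numbers of the labels as pairs, called 5 of the 10 genes higher and 2 lower, and 6100 genes in all against 6452. Same-numbered livers correlated at 0.037, 0.033 and -0.028 in their deviations from the group means, so the numbers were not taken as pairs, and not every liver correlated best with its own number. Among the 10 genes, *Ugt8a* had the largest standard error, 0.55, on 9 control reads.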
